A study of Mus musculus with 7 samples.

Results

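The Lefty1 and Lefty2 locus on mouse chromosome 1 was examined by ATAC-seq, in which Tn5 transposase inserts sequencing adapters into open chromatin, in WT and Smad2/3 DKO epiblast-like cells (EpiLCs). The 18 accessible sites of the locus, of 75880 listed in the genome, are those whose midpoint lies within 100 kb of a curated RefSeq transcription start site (TSS) of either gene on mm10. Of these, 17 lie within 100 kb of the Lefty2 TSS, 16 within 100 kb of the Lefty1 TSS and 15 within that distance of both.

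EpiLCs were obtained from embryonic stem cells kept in PD0325091, CHIR99021 and LIF, by 48 h of culture with 20 ng/ml activin A and 12 ng/ml Fgf2, and model the primed epiblast. The WT group holds 3 differentiations of clone CCE and the Smad2/3 DKO group 3 differentiations of clone KT15.1F6, both of 129/Sv//Ev background and grown and transposed alike. The DKO cells carry the Smad2 tm1Rob/tm1Rob alleles and a CRISPR deletion around the first exon of Smad3. With 1 clone per genotype, clone and genotype cannot be told apart. A library of Tn5-treated genomic DNA from WT EpiLCs was used by the authors in calling sites and has no values here.

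Nodal and activin bind receptors that phosphorylate Smad2 and Smad3, which enter the nucleus with Smad4 and act at enhancers together with partners such as FoxH1. Lefty1 and Lefty2 are secreted antagonists of Nodal and are themselves Nodal targets, so the pathway induces its own inhibitors. In the embryo this negative feedback limits the range of Nodal in the epiblast and along the left-right axis. The comparison addresses which elements around these feedback genes differed in accessibility when both transducers were absent, while activin A was present in both cultures.

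Each value is the log2 mean of normalised reads at a site over the 3 differentiations of a genotype, and differences are DKO minus WT on that log2 scale. The files used here hold no value per library, so no SD, interval or test can be given, the sequencing depth is unknown, and all statements describe the listed means. A site was counted as lower or higher when the DKO mean was more than 1.5-fold below or above the WT mean, a log2 difference of 0.585. A lower mean can come from fewer cells with an open site, from less opening per cell or from DNA missing in the clone. These cannot be told apart from genotype means of bulk libraries.

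Of the 18 sites, 5 were lower in DKO, 0 were higher and 13 did not pass 1.5-fold in either direction. The 5 lower sites make up 27.8% of the locus, beside 16.0% of all listed sites that were lower and 8.51% that were higher. All 5 were also past 2-fold, as were 6.35% of all listed sites. The median difference was -0.245 at the locus and -0.08 over all listed sites. The lower sites consisted of 1 site upstream of Lefty2 and 4 sites that were nearest to the Lefty1 TSS, and these 4 were the listed sites within a 13500 bp stretch that ran from the distal upstream site to the last exon of Lefty1.

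**Figure D1:**
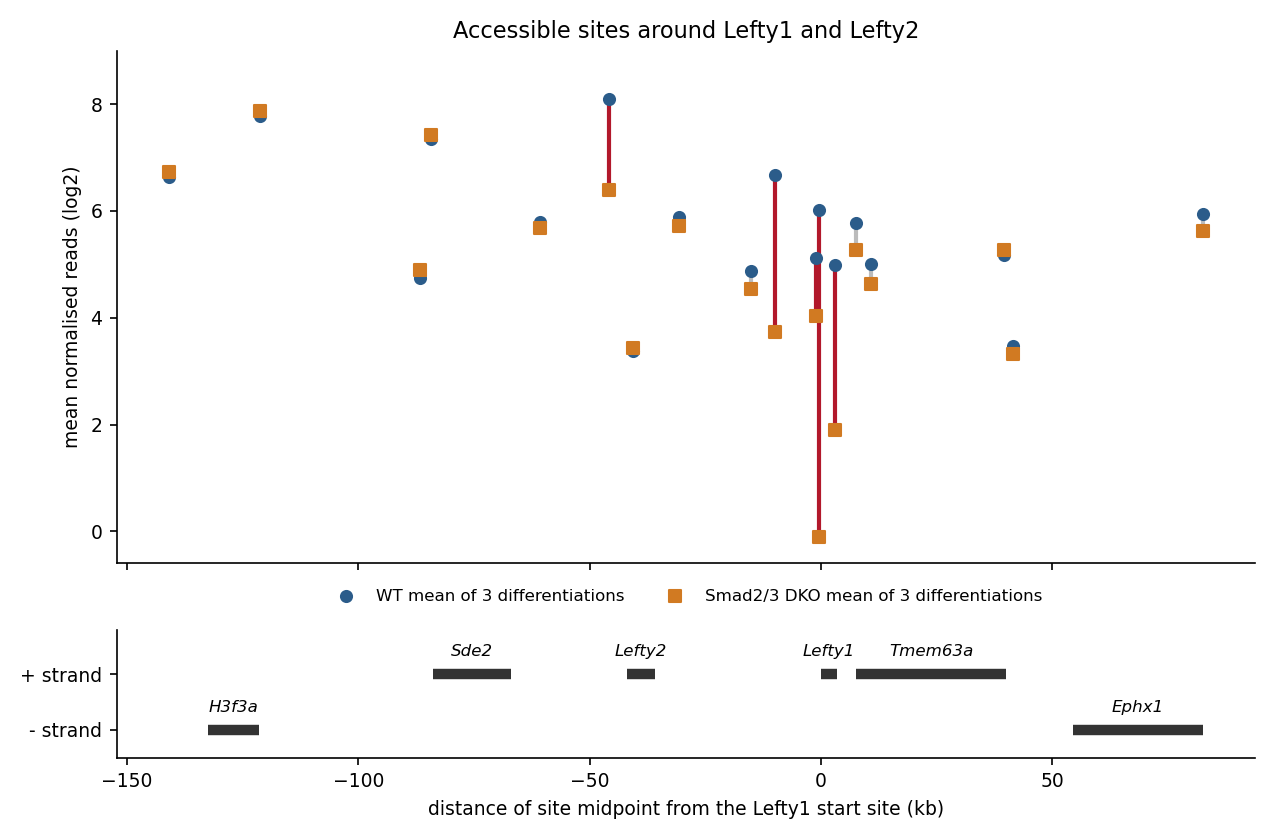
Mean normalised reads (log2) at the 18 sites of the locus against distance from the Lefty1 TSS (kb), with WT means as blue circles, Smad2/3 DKO means as orange squares and the bodies of the 6 genes described here drawn below by strand. Red lines join the means of the 5 sites more than 1.5-fold lower in DKO, which lie near the 2 Lefty genes, while the pairs at the other 13 sites differ by -0.50 to 0.14.

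The sequences of the 2 distal lower sites are shown first, because both hold a pair of strings that match the FoxH1 recognition sequence. At the Lefty2 upstream site the pair lies on the minus strand at chr1:180888873-180889003, and at the Lefty1 distal site on the plus strand at chr1:180924794-180924904 (GRCm38.p6, the RefSeq build that corresponds to mm10). The stretches of 131 and 111 bases start 20 bases before the first FoxH1 string and end 20 bases after the second, and the capitals mark the FoxH1 strings, TGTGGATT.
Lefty2 upstream site, minus strand: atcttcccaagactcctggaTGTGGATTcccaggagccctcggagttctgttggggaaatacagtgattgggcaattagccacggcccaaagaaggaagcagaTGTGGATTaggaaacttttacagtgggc
Lefty1 distal site, plus strand: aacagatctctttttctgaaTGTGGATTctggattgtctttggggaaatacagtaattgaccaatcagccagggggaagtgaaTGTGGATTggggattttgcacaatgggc

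In a global alignment the 2 stretches shared 82 of 103 aligned bases (79.6%). A further 29 gap bases lie within the alignment and are left out of this share. Both stretches were cut around their FoxH1 strings, so the presence of these strings in both was fixed in advance. No other pair of sites was aligned, so the share has no reference value. Both strings of a pair pointed the same way, with starts 83 bases apart at the Lefty2 site and 63 bases apart at the Lefty1 site. Between them both sites held an identical run of 15 bases, printed here in the plus strand of the Lefty2 site at chr1:180888939-180888953. This run occurred in 2 of the 75880 listed sites, namely these. It was picked as the longest run shared by the 2 sites, so its presence in both was fixed in advance.
Run shared by both sites: ACTGTATTTCCCCAA

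Among the 153 pairs of sites in the locus, the longest identical run on either strand was 7 to 14 bases in the other 152 pairs, with a median of 10, when repeat-masked bases were left out. The widths of the sites were not allowed for. Both genes are transcribed from the plus strand, whereas the similar stretches lie in opposite orientations.

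The FoxH1 string was found in 2 of the 5 lower sites and in 0 of the 13 other sites, when whole sites were searched on both strands. It was present in 1.72% of all listed sites. In 500 bp around the midpoint it was found at the Lefty1 distal site and in 1.85% of all sites. The pair of the Lefty2 upstream site lies outside that window, because this site is 1640 bp wide and its matches start 357 and 274 bp before the midpoint. A second FoxH1 string, TGTGTATT, had no match in the locus and was present in 1.84% of all sites.

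The Lefty2 upstream site also held the palindrome GTCTAGAC, in which Smad recognition half-sites face each other, at chr1:180889319-180889326. This string occurred in 1 of the 18 sites and in 0.382% of all listed sites. It is shown with its surroundings at chr1:180889259-180889386, plus strand, where capitals mark the palindrome and a Smad string CAGAC on the minus strand, which reads GTCTG on the plus strand.
Lefty2 upstream site, palindrome: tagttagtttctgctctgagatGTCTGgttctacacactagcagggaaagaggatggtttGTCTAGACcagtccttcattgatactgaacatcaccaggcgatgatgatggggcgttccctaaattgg

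The short Smad string CAGAC was frequent everywhere. It was found in all 5 lower sites, in 8 of the other 13 sites and in 63.6% of all listed sites. The Lefty2 upstream site held 10 copies, while the other lower sites held 1 to 4 copies and the other sites of the locus 0 to 4. These counts were not scaled to width, and the Lefty2 upstream site is the widest of the locus, at 1640 bp. The Lefty1 promoter site, 570 bp wide, held 4 copies. The GC-rich Smad string GGCGC was found in 1 lower site and 7 other sites, beside 36.4% of all sites.

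**Figure D2:**
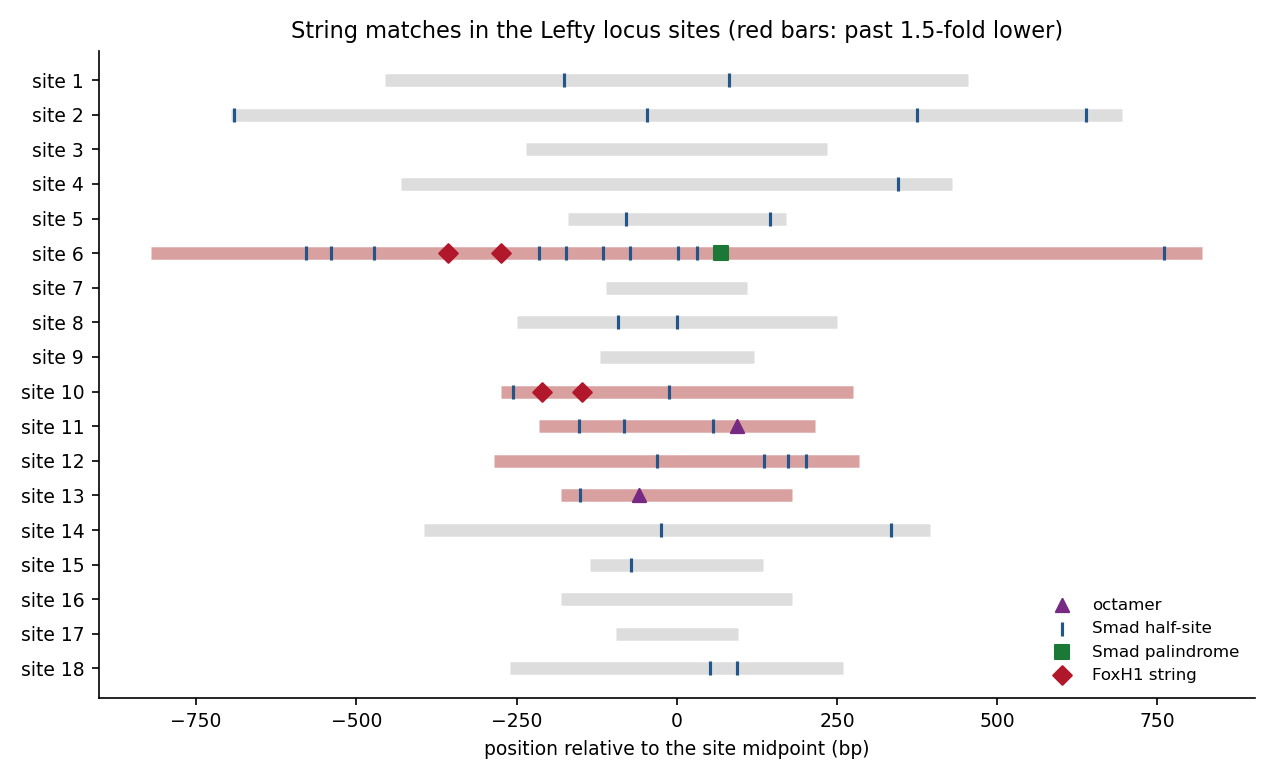
Positions of string matches (bp from the site midpoint) in the 18 sites of the locus, numbered in genome order, with bars drawn to the width of each site and red bars for the 5 sites lower in DKO. The paired FoxH1 strings lie in sites 6 and 10, the Smad palindrome in site 6 and the octamer in sites 11 and 13.

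The octamer ATGCAAAT, recognised by POU factors such as Oct4, was found in 2 of the lower sites and in 0 of the other 13, beside 4.25% of all listed sites. One match lies at chr1:180934009-180934016, within the site closest upstream of the Lefty1 promoter site. It is shown at chr1:180933949-180934076, plus strand, with the octamer and a minus-strand CAGAC in capitals. The other match is in the site at the last exon of Lefty1.
Lefty1 proximal upstream site: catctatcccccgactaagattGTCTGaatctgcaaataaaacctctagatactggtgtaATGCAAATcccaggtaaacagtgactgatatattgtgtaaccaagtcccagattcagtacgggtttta

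The Sox string CATTGT was found in 2 of the lower sites and 2 of the others, beside 18.9% of all sites. The Otx2 string GGATTA was found in 1 lower and 1 other site, beside 13.3% of all sites, and its match in the Lefty2 upstream site overlaps a FoxH1 string by 5 bases. All these matches are of letters and carry no information on binding.

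The Lefty2 upstream site spans 180888430 to 180890070 in intergenic sequence, and its midpoint is 3858 bp before the start of Lefty2. Its mean was 8.09 in WT, the highest WT mean of the locus, and 6.39 in DKO, a difference of -1.70 that corresponds to 3.25-fold fewer normalised reads. On the linear scale these are 272 and 83.9 reads. The site thus remained accessible in DKO, with 30.8% of the WT mean, and its DKO mean was above the median of 4.94 over all listed sites. These means are per site and not per kb. This site is 1640 bp wide, beside a median width of 400 bp over all listed sites, so the comparison does not show a denser signal. This site carries both the FoxH1 pair and the palindrome shown above.

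The Lefty1 distal site spans 180924750 to 180925300, also in intergenic sequence, and its midpoint is 9997 bp before the start of Lefty1. It had a WT mean of 6.68 and a DKO mean of 3.74, a difference of -2.94. The DKO mean was 13.0% of WT, or 7.67-fold lower. Per kb of site, the WT means of the distal sites of Lefty2 and Lefty1 were 166 and 186 reads, and the DKO means 51.1 and 24.3 reads.

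A weaker site spans 180933700 to 180934130, with its midpoint 1107 bp before the start of Lefty1, and had a mean of 5.11 in WT and 4.04 in DKO. Its difference of -1.07, a 2.10-fold lower mean, was the smallest among the 5 lower sites. The nearest value outside the threshold was that of the Tmem63a promoter site, at -0.50. The octamer shown above lies in the weaker Lefty1 site.

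The Lefty1 promoter site spans 180934390 to 180934960, with its midpoint 347 bp and its end 62 bp before the TSS. The WT mean was 6.01, equal to 64.4 reads, and the DKO mean was -0.10, the lowest value listed for DKO. The listed means differ by -6.11, which was the second lowest difference of the 75880 sites, and no fold is given because the DKO value is at the floor of the table. The stretch around its midpoint, chr1:180934595-180934754, plus strand, is shown with a CAGAC string in capitals. It held none of the FoxH1 strings, the palindrome or the octamer.
Lefty1 promoter site, around the midpoint: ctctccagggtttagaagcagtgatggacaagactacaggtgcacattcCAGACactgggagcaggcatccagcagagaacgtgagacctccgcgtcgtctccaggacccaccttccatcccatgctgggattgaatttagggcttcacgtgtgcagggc

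The floor value was shared by 164 sites in DKO, of which 35 had a WT mean of at least 4 (16 reads) and 2 a WT mean of at least 6. Of these 35 sites, 12 lie on chromosome 1 (34.3%), although chromosome 1 holds 7.60% of all sites with such a WT mean. In WT, 6 sites were at the floor with a DKO mean of at least 4, and 2 of them lie on chromosome 1. The next DKO floor site with a WT mean of at least 4 on chromosome 1 is 16.7 Mb away, and the part of this excess in the value at the Lefty1 promoter was not tested. The neighbouring upstream site, 260 bp away, had a DKO mean of 4.04.

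The site at the end of Lefty1, from 180937890 to 180938250, overlaps exon 4, with coding sequence and, at its midpoint, UTR. It had a mean of 4.99 in WT and 1.90 in DKO, a difference of -3.09 or an 8.51-fold lower mean. In reads these are 31.8 and 3.73, so the DKO mean rests on few reads. Together with the promoter and upstream sites, it places lower DKO means at both ends of the Lefty1 transcript.

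Lefty2 had no such pattern at its own gene body. No listed site covers the Lefty2 TSS, and the nearest, from 180894290 to 180894510, begins 1182 bp downstream of it, in intron 2 at its midpoint with coding sequence at its edge. This weak site had means of 3.37 in WT and 3.43 in DKO, a difference of 0.06, and held about 10 reads in either genotype (10.3 and 10.8). The site next upstream of the lower one, 18908 bp from the Lefty2 TSS, had means of 5.79 and 5.68. Among the sites nearest to the Lefty2 TSS, only the upstream site was thus lower. The other 4 lower sites of the locus also lie within 100 kb of Lefty2 but are nearest to the Lefty1 TSS.

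The neighbouring genes offer a comparison, and of the 6 genes with a curated TSS described here, 4 have a listed site over the TSS. These 4 promoters were not past 1.5-fold. H3f3a, which encodes the histone variant H3.3, had promoter means of 7.77 in WT and 7.88 in DKO. Sde2 had means of 7.34 and 7.42. Tmem63a, an ion channel gene that starts downstream of Lefty1, had means of 5.77 and 5.27, a difference of -0.50. Ephx1, the microsomal epoxide hydrolase, had means of 5.94 and 5.62.

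Of the 13 sites that did not pass, 7 had a difference below 0 and 6 above it, with a median of -0.11. The site next upstream of the Lefty1 distal site, 15172 bp from the Lefty1 TSS, had means of 4.88 and 4.53. An intronic Tmem63a site, 3257 bp into that gene, had means of 5.01 and 4.63. The 3 most negative differences among the 13 were these and that of the Tmem63a promoter, and they lie next to the lower Lefty1 sites. The sites that lie outside promoters near H3f3a and Sde2, at Lefty2 and at the end of Tmem63a differed by -0.14 to 0.14.

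**Figure D3:**
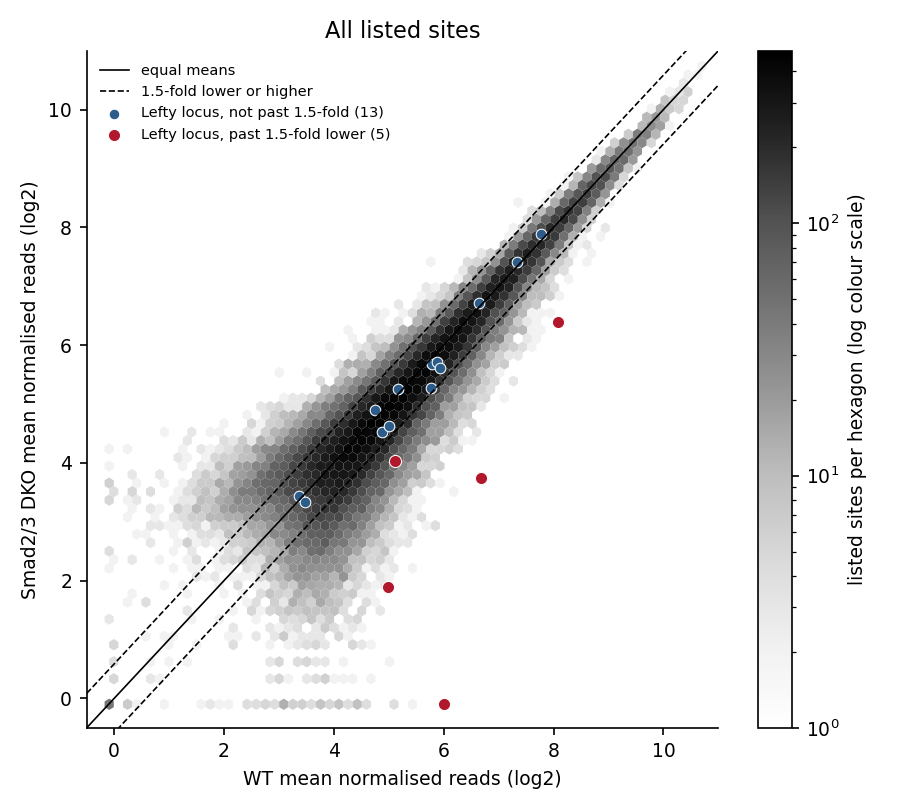
WT mean against Smad2/3 DKO mean (both log2 normalised reads) for all 75880 listed sites as grey hexagons on a log colour scale, with the Lefty locus sites as coloured points. The 5 lower sites (red) lie below the dashed 1.5-fold line, down to the DKO floor of -0.10, and the other 13 (blue) lie between the dashed lines.

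The surroundings out to 1 Mb held a smaller share of lower sites than the locus. From 100 kb to 1 Mb from the nearest Lefty TSS, 60 sites were listed, of which 8 were lower (13.3%) and 5 higher (8.33%). Their median difference was -0.015 and their lowest was -1.76, so 3 of the 5 lower Lefty sites had a larger difference than any site of these flanks. Within 100 to 500 kb, 7 of 28 sites were lower (25%), a share close to that of the locus. These flanks include Mixl1, a homeobox gene of the primitive streak and Nodal target whose TSS lies 196074 bp from that of Lefty2.

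**Figure D4:**
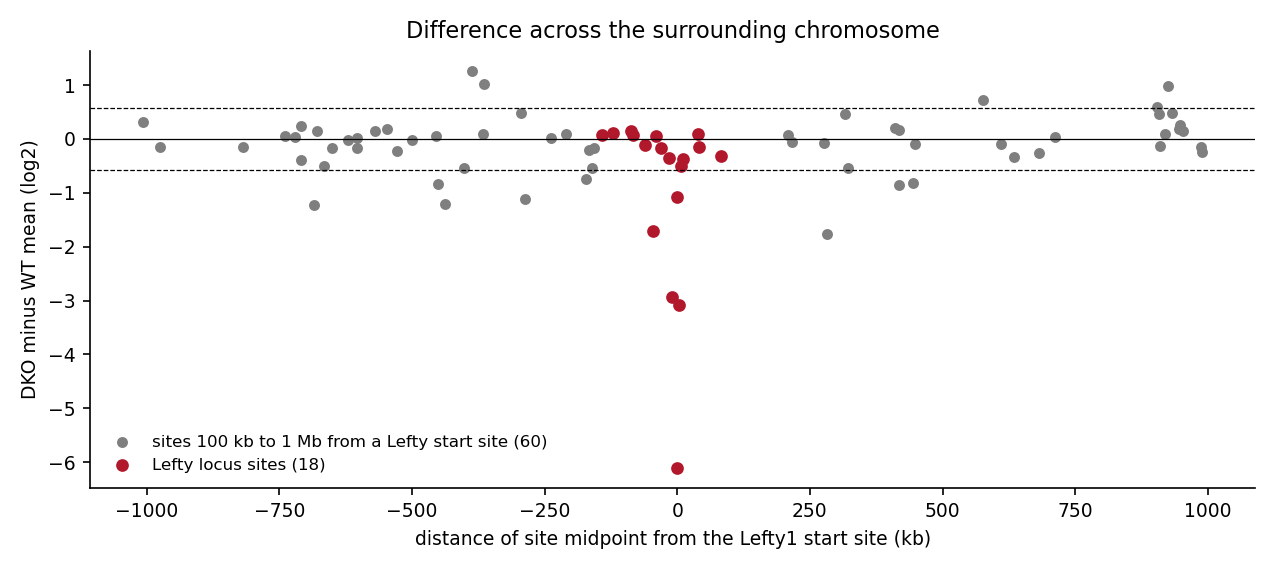
DKO minus WT mean (log2) against distance from the Lefty1 TSS (kb) for the 18 sites of the locus (red) and the 60 sites from 100 kb to 1 Mb of a Lefty TSS (grey), with dashed lines at 1.5-fold. Differences below -2 occur at 3 sites, all at Lefty1, and the flanking sites stay at or above -1.76.

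Across the genome, 25363 genes with a curated TSS had at least 1 listed site within 100 kb, with a median of 8 sites and 1 lower site. At least 5 lower sites, as at Lefty1 and Lefty2, were found for 499 of these genes (1.97%), and 43.9% had no lower site. The count depends on how many sites lie near a gene, and Lefty1 and Lefty2 have 16 and 17. Among the 932 genes with 16 or 17 sites, 85 had at least 5 lower sites (9.12%), and the median was 2. Genes that lie close together share sites in these counts, as both Lefty genes do.

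The inactivated genes and cell type markers were checked in the same columns. The Smad3 promoter site, from 63757970 to 63758460 on chromosome 9, had means of 5.42 in WT and -0.10, the floor, in DKO. Its midpoint is 221 bp from the TSS, near the first exon that the DKO deletion was designed to remove, so missing DNA and lower accessibility cannot be told apart at this site. The Smad2 promoter site had means of 8.35 and 8.28. Sites within 1 kb of a TSS were listed for 11 of 12 markers, and none for Otx2. Fgf5, Pou3f1 and Dnmt3b of the primed state had WT means of 6.63, 7.18 and 5.66. Klf4, Zfp42 and Nr0b1 of the naive state had higher WT means, at 7.83, 7.42 and 7.73 (the highest site of each gene). Sites were also listed for Sox17, Gata6 and T of other lineages. Accessibility at these promoters thus does not by itself identify the cell type.

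The other genes of the Nodal pathway gave a lower share of sites past the threshold than the Lefty locus. Over the 17 genes described here, 183 sites lie within 100 kb of a TSS, of which 26 were lower (14.2%) and 14 higher (7.65%), close to the shares over all listed sites, with a median difference of -0.04. One of these sites, near Mixl1, is also a site of the Lefty locus. At least 1 lower site was found for 13 of the 17 genes. Of all genes with a listed site within 100 kb, 43.9% had no lower site, at a median of 8 sites per gene. The number of sites per gene was not matched in this comparison.

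The counts by role stand beside 16.0% lower and 8.51% higher over all listed sites. They rest on 10 to 42 sites per role, and differences between roles were not tested. By role, the ligand genes Nodal, Gdf1 and Gdf3 had 3 lower (7.14%) and 5 higher (11.9%) of 42 sites, and none of the 13 sites of Nodal was lower. The coreceptor gene Tdgf1 had 3 lower and 2 higher of 15. The convertase genes Furin and Pcsk6, whose products process the ligands, had 1 lower and 3 higher of 10. The other antagonist genes, Cer1 and Dand5, had 3 lower and 1 higher of 23. Receptor genes had 2 lower and 0 higher of 27, and Skil, a transcriptional corepressor of Smads, had 1 lower and 0 higher of 10.

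The target genes Eomes, Gsc and Mixl1 had 7 lower (21.2%) and 1 higher (3.03%) of 33 sites, beside 16.0% and 8.51% of all listed sites, with a median of -0.28. Foxh1, which encodes the Smad partner FoxH1, had the most lower sites by count, 4, but also the most sites, 20. Its share of 20% is near that of all sites, and its median difference was 0.055. Smad3 had 2 lower and 1 higher of 3 sites, with a median of -2.47. The largest difference of the list, -5.52, was that of the Smad3 promoter site described above. That site is counted among the 26 lower sites, although missing DNA cannot be told apart from lower accessibility there. Among sites with a mean of at least 4 in either genotype, the largest difference upward was at Gsc, a homeobox gene of the organizer, from 104453140 to 104453460 on chromosome 12, with means of 2.83 in WT and 4.28 in DKO.

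**Figure D5:**
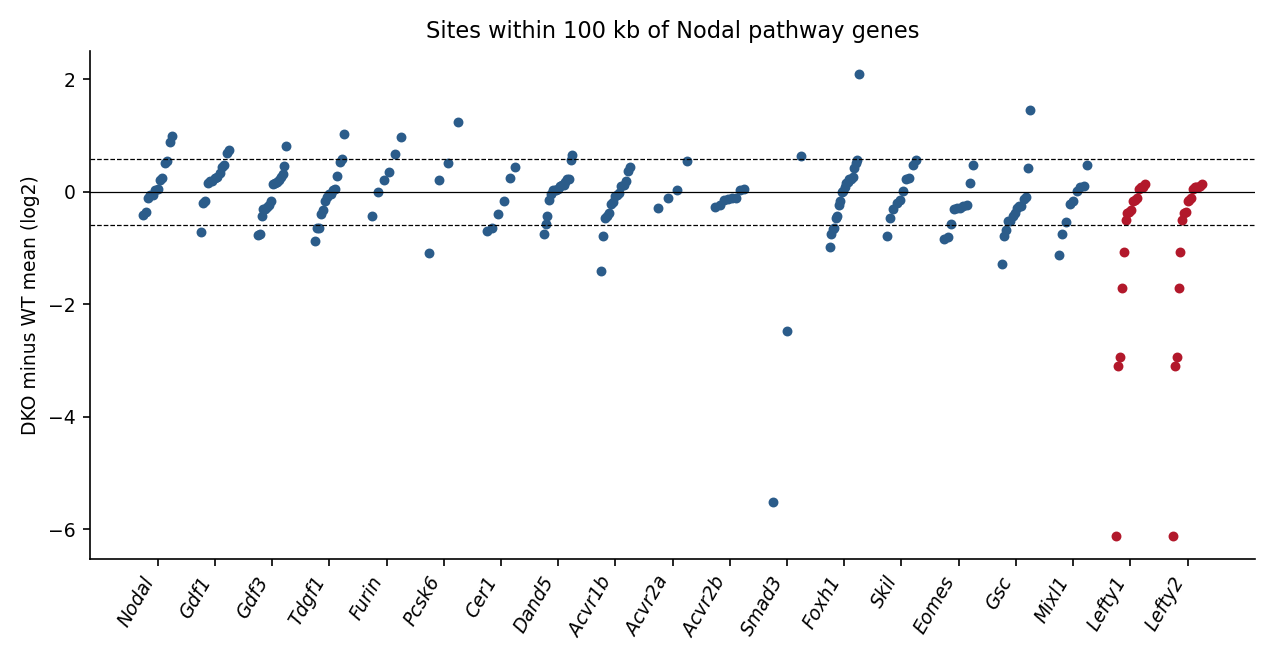
DKO minus WT mean (log2) at every listed site within 100 kb of a TSS of the 17 Nodal pathway genes (blue) and of Lefty1 and Lefty2 (red, which share 15 sites), sorted within each gene, with dashed lines at 1.5-fold. The Lefty1 promoter site at -6.11 and the Smad3 promoter site at -5.52, next to the exon targeted for deletion in DKO, are the lowest points.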

How the data were processed

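The authors aligned paired-end ATAC-seq reads to mm10 with Bowtie2, removed duplicates with SAMtools, called sites with DANPOS2 against the genomic DNA control and compared genotypes with DiffBind. Versions and the normalisation in DiffBind are not given in the sources used here, nor whether reads were shifted for Tn5. The deposited table holds log2 concentrations, the log2 mean of normalised reads over all libraries and per genotype. Its 3 columns of the authors' own comparison (fold, p-value and FDR) were not used. The planned values per library could not be computed, so genotype means were described without a test.

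Distances run from site midpoints to curated RefSeq TSSs of GRCm38.p6, and listed coordinates were read as counted from 1. The members, gene lists and strings were chosen with earlier results of these data known. 1 gene of the locus and 1 of the pathway list are not reported here, and the counts over genes and over the list leave them out. Named were the other genes and all lower sites of the locus, the site nearest each TSS, Smad2, Smad3, the pathway gene with the most lower sites and the largest pathway differences in each direction. The 15-base run, the alignment (match 1, mismatch -1, gap opening -3, extension -0.5, ends free) and the count of string copies were chosen after sequences were seen. No RefSeq promoter entry was used for Lefty1 or Lefty2. Code was tested on simulated data (Python 3.11.15, pandas 2.3.3, numpy 2.4.6, pysam 0.24.0, Biopython 1.88, matplotlib 3.10.9).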

Additional observations from a re-analysis of the deposited data

How the results depend on the processing

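The counts of 5 lower and 0 higher sites at the locus were the same at a 2-fold threshold, with centred differences, with a mean of at least 4, with 1 read added, in a 50 kb window and for any overlap with the window, and a 200 kb window gave 6 lower of 24 sites. The median difference ranged from -0.165, when centred, to -0.35, in the 50 kb window. With 1 read added, the difference at the Lefty1 promoter site was -5.08 instead of -6.11. At 2-fold, the pathway genes had 6 lower and 4 higher sites instead of 26 and 14, and within 50 kb they had 17 lower and 8 higher. In whole sites instead of 500 bp, the FoxH1 string TGTGGATT was found in 2 locus sites instead of 1, and GGATTA in 2 instead of 0, since these matches, in the Lefty2 upstream site and in a site downstream of H3f3a, lie outside the window. No paired analysis was possible because only genotype means are listed and no library has a value of its own, and leaving out a replicate was not run for the same reason.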

Other observations

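Across all 75880 listed sites, the number of TGTGGATT strings per site was set beside the share of sites lower in DKO, a count chosen after the FoxH1 pairs of the Lefty sites had been seen. Of 74575 sites without the string, 15.8% were lower, with a median difference of -0.08. Of 1284 sites with 1 copy, 25.2% were lower, with a median of -0.20. Of 21 sites with at least 2 copies, 10 were lower (47.6%), with a median of -0.55, and the Lefty2 upstream and Lefty1 distal sites are among these 10. The median width also differed, at 390, 510 and 810 bp, and its part in the shares was not tested.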
